A study of Homo sapiens with 5 samples.

Results

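PML nuclear bodies are spherical protein assemblies of the cell nucleus, and the genes described here encode their scaffold and best known residents: PML, SP100, SP110, SP140, SP140L, DAXX and ATRX. Of the 20087 H3K27ac peaks in the table, 10 have their centre within 10 kb of an annotated start site of these 7 genes (GENCODE release 44, GRCh38), and each of the 7 has at least 1 such peak. H3K27ac, acetylation of histone H3 at lysine 27, marks active promoters and enhancers, and was measured by ChIP-seq in 2 libraries after IFN-β and in 2 control libraries, with 1 input library as background. The cells were HCT116, a colorectal carcinoma line, in the derivative CMV-osTIR1 RAD21-mAC, which carries the plant auxin receptor osTIR1 under a CMV promoter and a degron tag on the cohesin subunit RAD21. All cells, controls included, received 0.1% DMSO for 6 h. The IFN-β group then received 1000 unit/ml IFN-β for 1 h, and the control group (labelled mock) was not treated further. The labels place the controls at 0 min and the IFN-β libraries at 60 min, so 1 h of IFN-β and a possible further 1 h of culture cannot be told apart. The line is 1 engineered derivative, and nothing in the sources says that the 2 libraries of a group came from separate cultures.

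PML is a RING-finger protein that is modified by SUMO, a small ubiquitin-like tag, and assembles the shell of the body, into which partners are drawn through SUMO-binding motifs. SP100, SP110, SP140 and SP140L form the speckled protein family, chromatin readers that share a SAND domain and, in several isoforms, a bromodomain. DAXX is a chaperone of the histone variant H3.3 and works with ATRX, a chromatin remodeler, in placing H3.3 at repeats and at incoming viral DNA. Type I interferon acts through transcription factors that bind the interferon-stimulated response element (ISRE), and PML and SP100 are textbook interferon-stimulated genes of the intrinsic defence against viruses.

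The promoters of the SP family are shown because they hold a common element close to the start site. RefSeq promoter sequences (GRCh38.p14, 250 bases before to 50 bases after the start) were matched for 4 of the 7 genes. The longest run of bases common to SP110, SP140 and SP140L was 16 bases long and is printed in capitals, 5′ to 3′ on the strand of each gene, from base -100 to base 10 around the start. In SP100 the capitals mark the aligned 16 bases, which carry the substitution T9C, counted from 1 at the 5′ end of the run. The stretches lie on chromosome 2 at chr2:230219975-230220084 (minus strand) for SP110, chr2:230225636-230225745 (plus) for SP140, chr2:230327093-230327202 (plus) for SP140L and chr2:230416101-230416210 (plus) for SP100.
SP110: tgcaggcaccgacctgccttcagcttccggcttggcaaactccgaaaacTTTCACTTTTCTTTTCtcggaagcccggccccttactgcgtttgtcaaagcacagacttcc
SP140: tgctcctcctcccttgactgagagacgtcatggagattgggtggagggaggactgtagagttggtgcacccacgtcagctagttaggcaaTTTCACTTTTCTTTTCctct
SP140L: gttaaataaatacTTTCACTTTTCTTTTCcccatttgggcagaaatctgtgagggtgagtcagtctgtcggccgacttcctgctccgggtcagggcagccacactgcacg
SP100: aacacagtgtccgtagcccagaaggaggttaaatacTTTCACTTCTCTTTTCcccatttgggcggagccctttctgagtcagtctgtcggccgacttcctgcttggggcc

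The element sits at bases -51 to -36 in SP110, at -87 to -72 in SP140L, at -64 to -49 in SP100, and across the start itself in SP140, at -10 to 6. The exact 16 bases occurred in 4 of the 35116 RefSeq promoters (0.0114%), all of them promoter entries of SP110, SP140 and SP140L, and in 13 (0.037%) with at most 1 mismatch. The ISRE core GAAANNGAAA, searched on both strands, was not found without mismatch in any of the 4 SP promoters and was found in 3.57% of all RefSeq promoters. With 1 mismatch allowed it lay within or overlapping the 16 bases, on the strand opposite to the gene, in SP110, SP140 and SP140L, and nowhere in the SP100 promoter. That looser form was found in 33.0% of all promoters. The gamma-activated site TTCNNNGAA (GAS), another interferon response motif, occurred in the SP110 promoter at bases -38 to -30, overlapping the 16 bases, and in 7.66% of all promoters. SP140L and SP100 had the most similar promoters of the family, with 251 identical bases over 328 aligned columns (76.5%), while the other 5 pairs were 42.0% to 49.3% identical. These letters are a description of the reference sequence, and no binding was measured.

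H3K27ac signal was higher after IFN-β than in controls at the start sites of SP110, PML and SP100, and lower in the deposited values at the other 7 peaks. SP110 was 2.639-fold higher, PML 2.219-fold and SP100 1.537-fold. DAXX, ATRX and SP140L had start-site peaks without such a difference, and SP140 had no peak at its own start. The table as a whole is shifted: the median difference of all peaks, IFN-β minus control, was -0.69 on the log2 scale, with 90% of the peaks between -1.3 and 0.06. Each difference is therefore also given relative to that median. Of the 10 peaks, 3 were above 0, against 5.93% of all peaks and 2.81% of the 11334 peaks within 1 kb of a protein-coding start site. The same 3 of 10 lay at least 1 log2 unit above the all-peak median (a difference of at least 0.31), against 2.51% of all peaks. The median over the 10 peaks was -0.47, beside -0.75 over all start-site peaks.

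The deposited signal is the log2 of the mean normalized reads in a peak over the 2 libraries of a group, so each value below is the authors' mean. No value per library is given, so the spread between libraries could not be computed and no test was run here. The error given here is that of counting. Reads were recovered approximately from the means and the relative library sizes, and the 95% exact binomial interval of each difference is given; it covers counting error only and is narrower than an interval that held the variation between libraries and the noise of the input would be. The library sizes read from the lowest values of the table were 1.01 and 1.3 for the controls and 1.46 and 1.52 for IFN-β on the scale of DiffBind. Whether the offset of -0.69 comes from the scaling or from the cells cannot be told apart here. The offset was not the same for all peaks. When the peaks were divided into 10 bins by GC content, the median difference was -0.48 in the lowest bin and -0.82 in the highest.

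**Figure D1:**
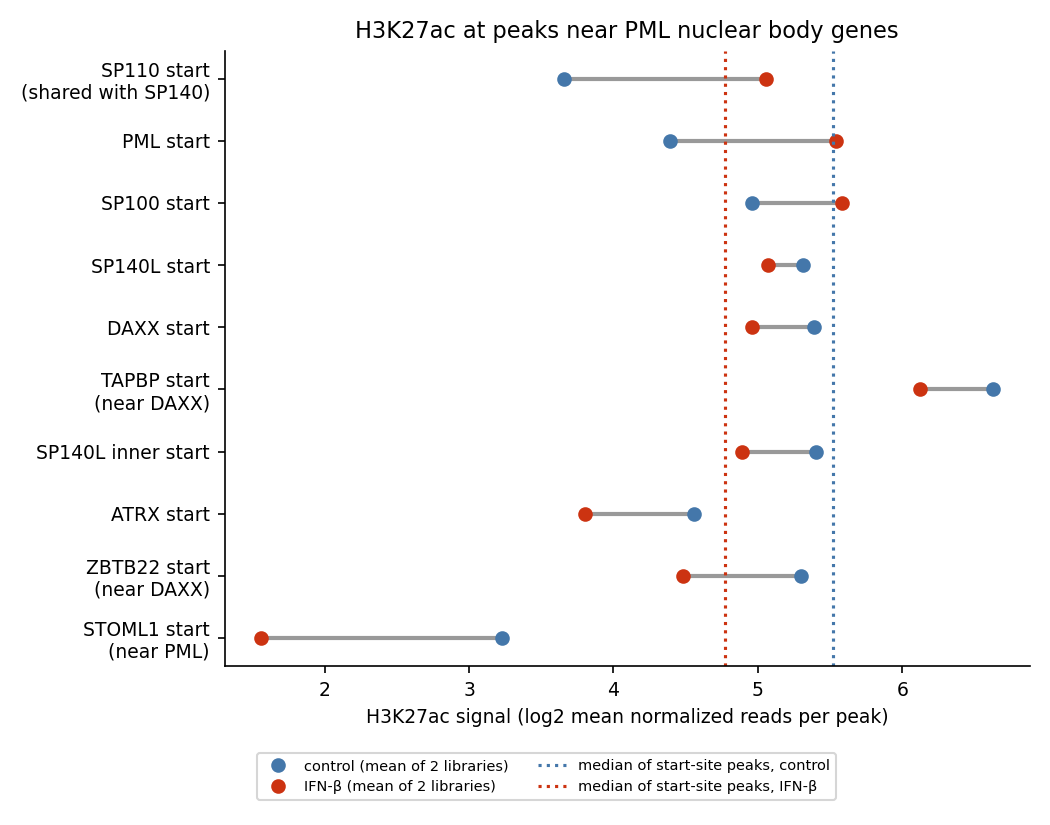
H3K27ac signal (x axis, log2 of mean normalized reads per peak) in control (blue) and IFN-β (red) at the 10 peaks, 1 per row, ordered by the difference, with no error bars because only group means exist. The red point lies to the right of the blue one at SP110, PML and SP100 and to the left at the other 7; dotted lines give the medians of the 11334 start-site peaks, 5.52 in controls and 4.77 after IFN-β.

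PML, the scaffold, had its peak at chr15:73993864-73995564, centred 2 bp from an annotated start and outside the canonical transcripts at that base. Its signal was 4.39 in controls and 5.54 after IFN-β, or 20.97 and 46.53 normalized reads. The difference was 1.15 (counting interval 0.68 to 1.67), which is 1.84 above the all-peak median and ranked 50 of 20087, with 99.75% of the peaks lower. PML stood higher among start-site peaks after IFN-β than in controls. By signal per peak, 18.6% of them were below it in controls and 79.2% after IFN-β. Its peak is longer than most, at 1700 bp, and per kb the shares were 8.28% and 53.3%. This is a comparison of ranks within each group that a common scaling factor leaves as it is. A shift that varies with GC content could change it. An exact ISRE core lay in the peak, centred at -458 bp from the canonical start. Among the 11722 protein-coding genes with a start-site peak, PML ranked 19 by its difference.

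The second peak near PML belongs to another gene. It lies at chr15:73991490-73992490, 2683 bp upstream of the nearest PML start and 156 bp from a start of STOML1, a neighbouring gene for a stomatin-like membrane protein, with its centre in a STOML1 intron. Its signal was 3.23 in controls and 1.56 after IFN-β, the lowest of the 10 peaks in both groups. The difference of -1.67 rests on about 22 and 9 reads, so its counting interval, -2.96 to -0.48, is wide and holds the all-peak median. It too holds an exact ISRE core, and an effect of the motif was not tested. Of the 4 other peaks within 250 kb of the PML start, those of GOLGA6A and ISLR2 were at or near the lowest values of the table, where a difference cannot be measured. The remaining pair, near LOXL1 and CCDC33, had -0.60 and -0.67.

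The SP family is treated as a single locus, because SP110, SP140, SP140L and SP100 follow each other on chromosome 2 and the same peak lies near both SP110 and SP140. The locus has 4 peaks, 2 of them above 0, against 5.93% of all peaks. Their median difference was 0.19, beside -0.69 over all peaks. The outer peaks of the stretch, at SP110 and SP100, were higher after IFN-β, and the inner pair, both at SP140L, was not.

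SP110 had its peak at chr2:230219602-230220602, centred 88 bp from an SP110 start. The signal was 3.66 in controls and 5.06 after IFN-β, or 12.64 and 33.36 normalized reads. The difference was 1.40 (counting interval 0.79 to 2.05), 2.09 above the all-peak median, and ranked 31 of all peaks and 11 of 11722 genes. SP110 started as the weakest of the start-site peaks of the 7 genes and reached the level of SP140L. The share of start-site peaks below it per kb was 8.70% in controls and 63.7% after IFN-β. The peak holds the 16-base element printed above, an exact ISRE core centred at -498 bp from the canonical SP110 start, and the GAS centred at -34 bp.

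SP140, a bromodomain protein best known from lymphoid and myeloid cells, had only this shared peak, whose centre is 5628 bp from its nearest start. No peak of the table covers the SP140 promoter printed above, although it carries the same 16 bases. The table lists only regions that passed the authors' peak calling, so the acetylation level at the SP140 start is not known. Of 9 lymphoid and myeloid marker genes, none had a peak within 1 kb of a start, while 7 of 9 epithelial markers of a colon carcinoma line had one, with control signals of 4.48 to 7.10. VIL1 and LGR5 were the epithelial markers without a start-site peak, and of 4 fibroblast genes COL1A1 had one, at 5.24. Such peaks are common: 11722 protein-coding genes had one, and their share of all protein-coding genes was not computed. Why SP140 had no peak at its start was not tested.

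SP140L, a close relative of SP140, had a start-site peak at chr2:230326657-230327657, 27 bp from a start. Its signal was 5.31 in controls and 5.07 after IFN-β, or 39.67 and 33.59 normalized reads. Per kb, 45.7% of start-site peaks were below it in controls and 63.7% after IFN-β. The difference of -0.24 (counting interval -0.66 to 0.19) was 0.45 above the all-peak median and ranked 656 of 11722 genes. Among the 7 peaks that were not above 0, this is the only interval that does not hold the all-peak median of -0.69. Its lower bound of -0.66 is close to that median. The interval does hold -0.58, the median difference of peaks with 45.1% to 49.8% GC, a range that includes this peak (49.45%). The inner peak, at chr2:230342197-230343197 in an SP140L intron and 627 bp from the start of a further transcript, had 5.40 and 4.89. Its difference was -0.51 (counting interval -0.94 to -0.08), and the shares of start-site peaks below it per kb were 49.0% and 57.0%. In that peak, 40.27% of the 31-base words occur more than once in the genome, so reads of related sequences could be assigned to it or lost from it. The share was 6.076% at the SP140L start, 3.604% at SP100, and 0% at PML and SP110.

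SP100, the founding member of the family and a viral restriction factor, had its peak at chr2:230415743-230416743, 3 bp from a start and in an untranslated exon at its centre. The signal was 4.96 in controls and 5.58 after IFN-β, or 31.12 and 47.84 normalized reads. The difference was 0.62 (counting interval 0.20 to 1.05), 1.31 above the all-peak median, and ranked 190 of all peaks and 48 of 11722 genes. SP100 was the strongest of the start-site peaks of the 7 genes after IFN-β. Per kb, 34.8% of start-site peaks were below it in controls and 82.5% after IFN-β. Its peak held no ISRE core, exact or with 1 mismatch. The counting intervals of SP110, PML and SP100 overlap, so the order of the 3 is a description. A further peak, 201005 bp downstream of the SP100 start and far from any protein-coding start, had 4.10 and 4.32, with a difference of 0.22 (counting interval -0.39 to 0.83). On the other side of the stretch, the start of SLC16A14 had a difference of -1.10.

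**Figure D2:**
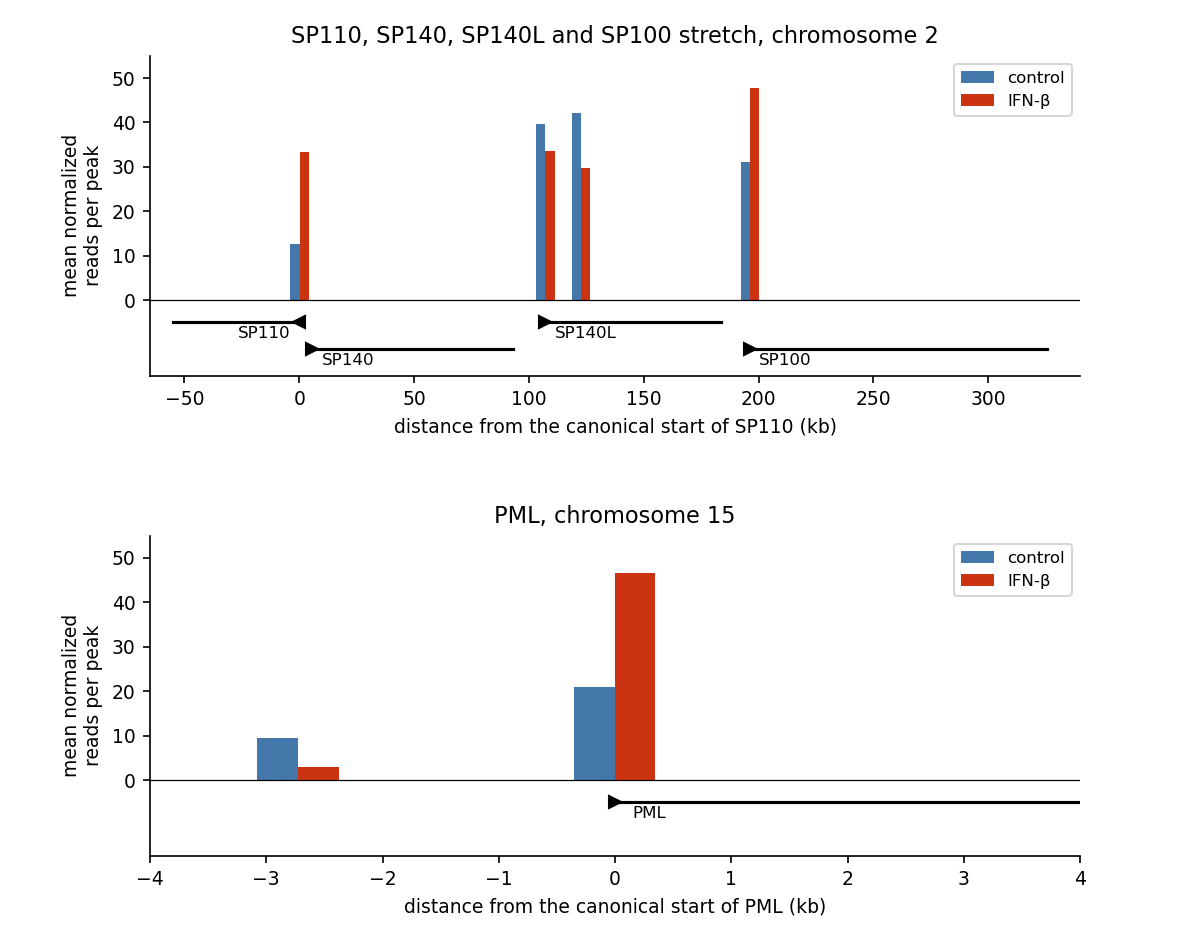
Mean normalized reads per peak (y axis) in control (blue) and IFN-β (red) along the SP stretch (top) and at PML (bottom), against the distance of the peak centre from the canonical start of SP110 or PML in kb (x axis). Bars are widened for visibility, black lines run from each canonical start (triangle, pointing along the gene) to the gene's end (PML runs past the right edge); IFN-β bars are taller at SP110, SP100 and PML, control bars at both SP140L peaks and at the STOML1 peak left of PML.

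DAXX and ATRX, the partners in H3.3 deposition, had start-site differences whose counting intervals hold the all-peak median. The DAXX peak at chr6:33322246-33323246, centred 57 bp from a start in a DAXX intron, had 5.39 in controls and 4.96 after IFN-β. Its difference was -0.43 (counting interval -0.86 to -0.01), and it ranked 1540 of 11722 genes. The ATRX peak at chrX:77785518-77786518, 186 bp from a start and in an untranslated exon, had 4.56 and 3.80. Its difference of -0.76 (counting interval -1.35 to -0.13) ranked 5828 of 11722 genes, in the middle of the list. ATRX had much the same place among start-site peaks in both groups, with 24.9% below it per kb in controls and 23.6% after IFN-β. For DAXX these shares were 48.7% and 59.6%. An exact ISRE core was centred at -38 bp from the canonical ATRX start, and a GAS at 57 bp from that of DAXX. Whether these motifs bear on the signal was not tested.

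The other peaks near DAXX are the starts of its neighbours in the extended MHC region. TAPBP, which encodes tapasin and loads peptides on MHC class I, had its peak at chr6:33313411-33314411, 6549 bp from the nearest DAXX start. With 6.63 in controls and 6.12 after IFN-β it had the strongest signal of the 10 peaks and the difference was -0.51 (counting interval -0.79 to -0.23). It holds 2 exact ISRE cores that overlap each other and 1 GAS. ZBTB22, a gene for a zinc finger protein, had its peak at chr6:33317598-33318598, 2362 bp from a DAXX start, with 5.30, 4.48 and a difference of -0.82 (counting interval -1.29 to -0.34). Within 250 kb of the DAXX start lay 18 further peaks, 1 of them above 0, with a median of -0.77. Near ATRX the 2 further peaks had -1.16 and -0.43.

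**Figure D3:**
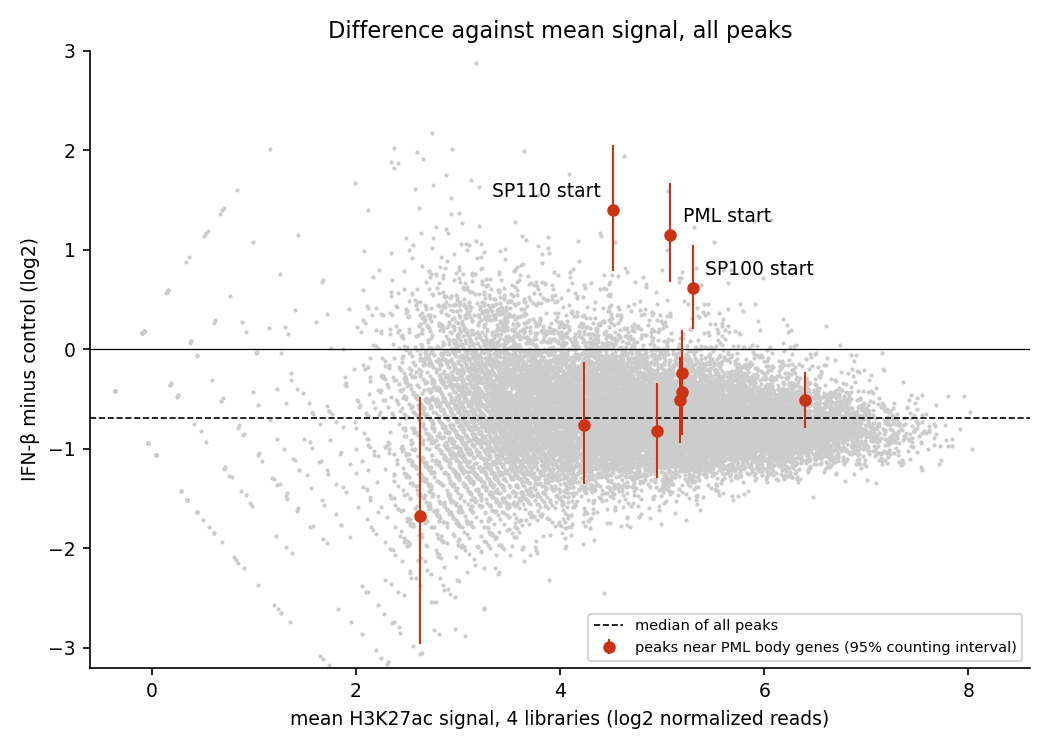
Difference between IFN-β and control (y axis, log2) against the mean signal of the 4 libraries (x axis, log2 normalized reads) for all peaks (grey) and the 10 peaks near the PML body genes (red, bars are 95% counting intervals); 10 grey peaks lie outside the axes. The dashed line is the all-peak median of -0.69; SP110, PML and SP100 lie above 0 with their whole intervals, and the other 7 lie around the dashed line or below 0.

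Low signals scatter more in this table, so each peak was also set beside peaks of similar strength. The peaks were divided into 4 bins of near-equal size by mean signal. In the bin that holds PML and SP100 (mean signal 4.76 to 5.60), the median difference was -0.70 with an SD over peaks of 0.32, 2.39% of the peaks were above 0 and 0.917% passed 0.31. In the weaker bin that holds SP110 and ATRX (3.76 to 4.75), the median was -0.64 with an SD of 0.44, 6.85% were above 0 and 2.09% passed 0.31. The start and inner peaks of SP140L, DAXX and ZBTB22 shared the bin of PML and SP100 and did not pass 0.31. STOML1 fell in the weakest bin (-0.36 to 3.75), with a median of -0.54 and an SD of 0.65. TAPBP fell in the strongest bin (5.61 to 10.22), with a median of -0.77 and an SD of 0.32.

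The exact ISRE core was present in 5 of the 10 peaks (PML, STOML1, SP110, TAPBP and ATRX), against 12.4% of all peaks and 9.41% of start-site peaks. Of those 5, PML and SP110 were above 0. Over the 1067 start-site peaks with the core the median difference was -0.68, beside -0.75 over all start-site peaks. The longer form GAAANNGAAACT was in none of the 10 peaks and in 0.759% of start-site peaks, where the median was -0.41. The GAS was in 4 of the 10 peaks and in 23.0% of all peaks.

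The start-site peaks most like those of the 3 genes were sought in the plane of control signal and difference, over the 2 group values of each gene. Nearest to PML were HELZ2, at a distance of 0.170 log2 units, PNPT1 (0.322) and HERC6 (0.472). Nearest to SP110 were SAMD9 (0.232), CMTR1 (0.406) and IFIT1 (0.443). Nearest to SP100 were IFITM3 (0.067), LAP3 (0.224) and TRIM14 (0.233). IFIT1 and IFITM3 encode antiviral effectors and are classical interferon-stimulated genes. Because the difference entered the search, the high differences of these neighbours follow from it. IFITM3 had 5.02 in controls and 5.67 after IFN-β, and HELZ2 had 4.47 and 5.47.

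For scale, 7 interferon signalling and target genes were read in the same way. STAT2, IRF9, IRF1, ISG15, IFIT1, IFIT3 and MX1 had differences from -0.53 (ISG15) to 1.59 (IFIT1), with a median of 0.46. Of the 7, 6 were above 0, against 2.53% of 13027 protein-coding genes with a peak. The counting intervals of IRF1 (-0.18 to 0.52) and IFIT3 (-0.37 to 0.49) hold 0. PML and SP110 lie in the upper part of the range of the 7 genes, and SP100 above their median.

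The rest of the PML body inventory was read from a list of 50 further genes, 49 of which had a peak within 10 kb of a start. IFI16, a DNA sensor, had none. At the peak nearest to a start, 0 of the 49 genes were above 0, against 2.53% of 13027 protein-coding genes with a peak, whose median was -0.76, so the count is close to the background share. The median of the 49 was -0.75, the range -1.41 to -0.31, and 20 lay above the all-peak median, against 49.1% of all peaks. That count depends on the reference. With the median of peaks of like GC content subtracted, 27 of the 49 were above 0, against 49.4% of all peaks. The 17 genes of the SUMO pathway, which builds and removes the modification that holds the body together, had a median of -0.86 and a range of -1.41 to -0.49. The 7 genes of H3.3 and its other chaperones had a median of -0.80, the 13 of DNA repair and genome maintenance -0.62, and the 12 of transcription and signalling -0.76.

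The highest of these genes were UBN2, a subunit of the HIRA chaperone complex for H3.3, at -0.31 (control 4.11, IFN-β 3.80), and MORC3, a PML body ATPase, at -0.40 (5.76 and 5.36). CABIN1, RMI2 and NBN followed with -0.41 each. The lowest were SUMO3 (4.73 and 3.32) and PIAS1, a SUMO ligase (5.03 and 3.62), with -1.41 each, and USP7, a deubiquitinase, with -1.22 (5.90 and 4.68). ISG20, an interferon-stimulated exonuclease of the bodies, had -0.48.

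**Figure D4:**
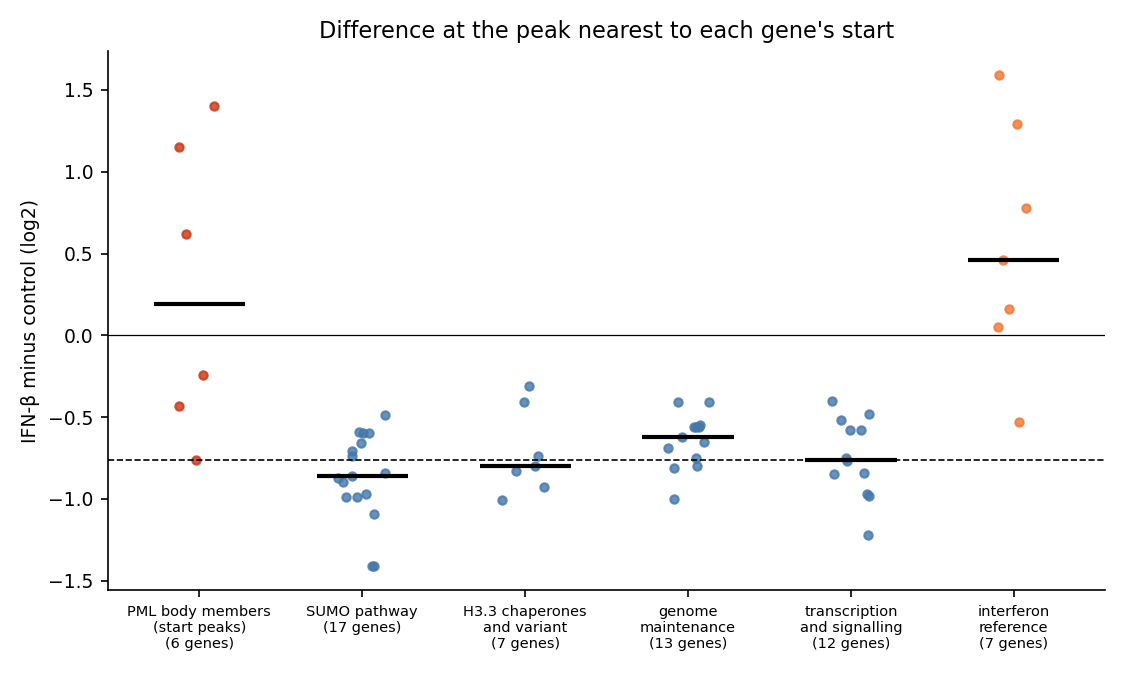
Difference between IFN-β and control (y axis, log2) at the peak nearest to each gene's start, 1 point per gene, for the 6 genes of the title group with a start-site peak (red), the other PML body genes in 4 functional groups (blue) and the interferon reference genes (orange). Black bars are group medians and the dashed line is the median of -0.76 over all protein-coding genes; all 49 blue points are below 0, while SP110, PML, SP100 and 6 of 7 reference genes are above it.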

How the data were processed

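H3K27ac ChIP-seq of HCT116 cells was available as a table of 20087 peaks. Per the labels and the study's methods, the authors trimmed reads with fastp, aligned them to GRCh38 with Bowtie2, called peaks per library against the input with MACS2, and merged and counted them with DiffBind; the submitters' processing notes give version 0.19.3 for fastp. The deposited log2 signal columns hold log2 mean normalized reads, for each group of 2 libraries and for all 4 together. The deposited table also holds the authors' own fold change, p-value and FDR from DESeq2, which were not used. It has no value per library, so the count test planned for such values was not run.

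Differences are IFN-β minus control log2 signal. A peak was assigned to a gene when its centre lay within 10 kb of a GENCODE 44 start, and called a start-site peak within 1 kb. Relative library sizes were read from the steps of the lowest values, taking the floor as 1 read per library. They turned the means into reads for 95% exact binomial intervals, without the noise of the input. Named genes are the 7 genes with all their peaks, the extremes of the list of other PML body genes, the 3 genes nearest in signal, and the interferon reference genes, without 1 gene that is not reported here and enters none of their counts. In the list of the highest, 3 genes tied. The members and lists were chosen with earlier results of these data known. Alternatives changed the distance, start sites, peak assignment, a pseudocount of 4 reads, a filter at 16 reads, the scaling and the motif. Interval, library sizes and motif search were tested on simulated data. The simulated counts held counting error only, so the check cannot show how the intervals behave under variation between libraries or input noise. The library-size check took the same floor of 1 read per library. Python 3.11.15, numpy 2.4.6, pandas 2.3.3, scipy 1.17.1, pysam 0.24.0, numba 0.67.0, Biopython 1.88, matplotlib 3.10.9 and samtools 1.23.1 were used.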

Additional observations from a re-analysis of the deposited data

How the results depend on the processing

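The count of peaks at least 1 log2 unit above the all-peak median stayed at 3 under every alternative run. Several runs could not change it. Subtracting the all-peak median or the ratio of summed signal moves every peak alike. Changes of distance, start sites or assignment could only leave out other peaks, as PML, SP110 and SP100 have theirs within 1 kb of the canonical start. The read filter kept these 3 and could act only through the median, which moved to -0.73. The pseudocount and the subtraction by GC content could have changed the count. The differences at PML, SP110 and SP100 were above 0 in each run, which was also fixed. The scalings subtracted negative values, and adding the same reads to both groups keeps the sign. Scaling decided the side of 0 for 4 of the other 7 peaks, while those of STOML1, ZBTB22 and ATRX stayed below 0. With the all-peak median subtracted, 7 of the 10 peaks were above 0, their median was 0.22, the SP locus median 0.88 and 20 of 49 other PML body genes were above 0. With the median of peaks of like GC content subtracted these were 6, 0.26, 0.795 and 27, and with the ratio of summed signal subtracted 7, 0.228, 0.888 and 21. The share of all peaks above 0 was then 49.1%, 49.4% and 50.3%. In the same order of scalings, DAXX turned to 0.26, 0.29 and 0.27 and TAPBP to 0.18, 0.23 and 0.19. The SP140L start went from -0.24 to 0.45, 0.34 and 0.46. The inner SP140L peak turned to 0.18 with the median and 0.19 with the summed signal. The number of peaks with the ISRE core was 3 of 7 within 1 kb, 3 of 7 among peaks nearest to the gene's own start, 3 within 250 bases of the centre, 8 with 1 mismatch and 0 for the longer form. The form with 1 mismatch was in 71.0% of all peaks, so its count of 8 of 10 is close to the background share. The longer form was in 0.851% of all peaks. For the core within 250 bases of the centre, the share of all peaks is not given here. No paired analysis was possible because the table gives no values per library; leaving out a library could not be run for the same reason. Depth limits the STOML1 peak most, with about 9 reads after IFN-β.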
